A study of Mus musculus with 12 samples.

Results

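The proneural basic helix-loop-helix (bHLH) genes analysed here were the neurogenins Neurog1, Neurog2 and Neurog3, the NeuroD genes Neurod1, Neurod2, Neurod4 and Neurod6, and the atonal homologues Atoh1 and Atoh7. They were chosen by family membership, not by a measured value, though with earlier results of these data known. They are 9 of the 21755 protein-coding genes annotated on chromosomes 1 to 19 and X of GRCm38. A site of trimethylated lysine 27 of histone H3 (H3K27me3) was assigned to a gene if at least 1 bp of it lay in the gene body extended by 20 kb on both sides, which is called the window of the gene below.

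The data come from immortalized mouse embryo fibroblasts (iMEF cells) in which H3K27me3 was mapped by chromatin immunoprecipitation and sequencing (ChIP-seq). In all groups, the endogenous Ash2l gene had been deleted with a tamoxifen-inducible Cre recombinase, and the cells lived on human ASH2L that carried an N-terminal FKBP12F36V tag and was delivered by a lentivirus. ASH2L is a core subunit of the COMPASS/KMT2 complexes, which methylate lysine 4 of histone H3, and the small molecule dTAG directs the tagged protein to the proteasome. H3K27me3 was immunoprecipitated in 2 libraries per group, from untreated cells and after dTAG exposure of 16 h, 24 h or 48 h. Input chromatin, which is sheared but not immunoprecipitated, was sequenced in 2 untreated libraries and in 2 libraries of the 48 h treatment. The study names 1 cell clone for its ChIP-seq experiments, so that all groups shared its genetic background.

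The 12 libraries are represented by 1 list of 101389 sites, pooled over all samples, with a chromosome, a start and an end for each site and no read count or score. The depth behind a site is therefore unknown, no value has a replicate error, and untreated and dTAG-treated cells could not be compared from this list. The study's separate list of sites changed at each time point was not used here. All values below describe where listed sites lie, and none was tested against chance. Whether a gene was transcribed in these cells was not analysed here.

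Proneural bHLH factors commit ectodermal progenitors to a neural fate, and related factors of the family act in the endocrine pancreas, the gut, the retina and the inner ear. They bind DNA at E-box motifs as dimers with the broadly expressed E proteins. In progenitors they activate Notch ligands, Notch signalling in neighbouring cells induces Hes and Hey repressors of the proneural genes, and Id proteins sequester the E proteins. H3K27me3 is placed by Polycomb repressive complex 2 and typically marks developmental regulators, often at CpG-rich promoters, in cell types that do not use them. Fibroblasts are not known as a site of proneural gene function.

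The sequences just upstream of the start sites are shown first for 6 genes that span the range of results: Neurod2, Neurog1 and Neurog2 with the widest sites over a transcription start site (TSS), Atoh1 with a site of intermediate width, Neurod6 with a narrow one, and Neurod4 with none. Each sequence is the 250 bases before a RefSeq start on GRCm38.p6, written 5′ to 3′ on the strand of the gene, with CpG dinucleotides in capitals. They lie at chr11:98329646-98329895 (Neurod2, minus strand), chr13:56252181-56252430 (Neurog1, minus strand), chr3:127632886-127633135 (Neurog2, plus strand), chr6:64728875-64729124 (Atoh1, plus strand), chr6:55681264-55681513 (Neurod6, minus strand) and chr10:130280255-130280504 (the farther upstream of the starts of Neurod4, minus strand).
Neurod2: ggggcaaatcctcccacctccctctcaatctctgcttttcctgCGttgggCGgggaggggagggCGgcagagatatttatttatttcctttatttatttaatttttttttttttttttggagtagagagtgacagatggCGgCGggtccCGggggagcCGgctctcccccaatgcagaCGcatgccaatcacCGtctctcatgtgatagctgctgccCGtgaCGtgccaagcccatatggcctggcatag
Neurog1: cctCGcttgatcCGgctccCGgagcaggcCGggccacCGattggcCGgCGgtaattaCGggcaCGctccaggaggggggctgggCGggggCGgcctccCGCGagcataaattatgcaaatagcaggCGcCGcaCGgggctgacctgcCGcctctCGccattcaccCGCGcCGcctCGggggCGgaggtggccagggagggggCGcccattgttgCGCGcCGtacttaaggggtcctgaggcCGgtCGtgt
Neurog2: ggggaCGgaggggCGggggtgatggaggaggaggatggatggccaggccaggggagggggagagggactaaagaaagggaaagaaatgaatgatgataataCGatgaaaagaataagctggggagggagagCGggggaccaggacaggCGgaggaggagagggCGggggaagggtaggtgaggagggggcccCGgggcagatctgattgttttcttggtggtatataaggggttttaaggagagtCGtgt
Atoh1: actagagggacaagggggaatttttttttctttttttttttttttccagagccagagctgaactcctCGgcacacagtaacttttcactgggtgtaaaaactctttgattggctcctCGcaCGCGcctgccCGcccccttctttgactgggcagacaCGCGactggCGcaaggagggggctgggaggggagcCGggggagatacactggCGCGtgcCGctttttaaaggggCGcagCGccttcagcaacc
Neurod6: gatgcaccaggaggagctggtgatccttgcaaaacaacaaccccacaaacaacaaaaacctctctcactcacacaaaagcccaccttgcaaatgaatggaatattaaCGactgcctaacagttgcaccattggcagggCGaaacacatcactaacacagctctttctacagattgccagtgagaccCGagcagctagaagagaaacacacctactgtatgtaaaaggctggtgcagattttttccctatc
Neurod4: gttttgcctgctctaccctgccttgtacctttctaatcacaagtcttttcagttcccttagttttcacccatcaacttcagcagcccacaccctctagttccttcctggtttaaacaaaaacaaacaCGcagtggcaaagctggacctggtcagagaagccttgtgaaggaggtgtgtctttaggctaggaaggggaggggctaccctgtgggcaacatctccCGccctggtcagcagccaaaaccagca

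The 250 bases of Neurog1 held 29 CpGs, more than 93.2% of the 32851 RefSeq promoters compared over the same length, whose median was 6. Atoh1 held 14, Neurod2 held 11 and Neurog2 held 8. Neurod6 held 3, more than 29.0% of promoters. The upstream start of Neurod4 held 2, more than 18.8% of promoters, but the 250 bases before its other RefSeq start held 7, more than 53.7%. The order of CpG counts was thus not the order of the H3K27me3 sites, since the gene with the widest site, Neurod2, was in the middle of these counts. E-boxes of the form CANNTG, searched on both strands, occurred in 66.2% of all promoters. Over all 9 genes they were found upstream of 5, namely Neurod2 and Atoh7 (3 times each), Neurod6 (2 times), Neurod1 and Neurog3 (1 time each). They were not found upstream of Neurog1, Neurog2, Atoh1 or either start of Neurod4. A match is a description of the letters and not a bound site.

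H3K27me3 sites lay over the TSS of all proneural genes but Neurod4. A site was present in the window of 9 of 9 genes, where 61.5% of all protein-coding genes had one. A TSS of any annotated transcript lay under a site in 8 of 9 genes, against 21.4% of protein-coding genes, and the same 8 genes had the 5′ end of the gene model under a site, against 18.1%. In 5 of 9 genes (Neurog1, Neurog2, Neurog3, Neurod2 and Atoh1) the site over the TSS was at least 10 kb wide, against 5.47% of protein-coding genes. The median covered share of the window, that is the percentage of its bases under a site, was 48.1% over the 9 genes and 1.88% over all protein-coding genes. Because these genes are short, the same median was taken over the 9991 protein-coding genes of at most 15 kb and was 1.70%.

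**Figure D1:**
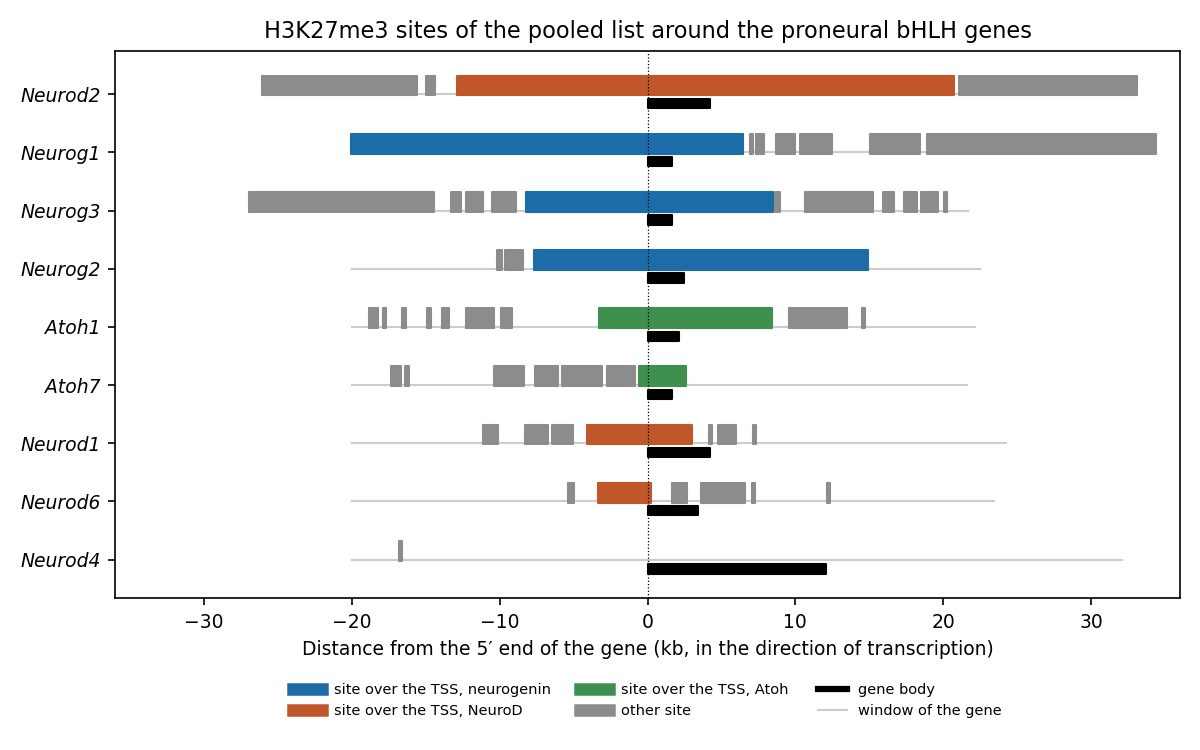
Each row is a gene, ordered by covered share, with the gene body as a black bar and H3K27me3 sites as boxes above it (coloured where the site lies over the TSS, grey otherwise), against the distance from the 5′ end in kb in the direction of transcription; the thin line is the window of the gene. The sites over the TSS extend from 3179 bp at Atoh7 to 33658 bp at Neurod2, and Neurod4 has a single site of 200 bp far upstream.

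The windows held 56 sites in all, none of them shared by 2 genes, and 5 of them ran past the edge of a window. Their widths ranged from 200 to 33658 bp with a median of 1182.5 bp, against a median of 676 bp over the whole list. Sites of at least 10 kb made up 16.1% of the sites in the windows (9 of 56) and 2.35% of the whole list. Sites under 500 bp made up 30.4% (17 of 56) and 38.5%, respectively. The windows therefore mixed a few very wide sites with many of ordinary width.

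Neurogenins, which start neuronal differentiation and, in the case of Neurog3, the endocrine lineage of the pancreas, all had a site of at least 10 kb over the TSS. Neurog1 (ENSMUSG00000048904, chr13:56250478-56252163, minus strand) had 88.5% of its window under 7 sites. The site over its TSS, at chr13:56245705-56272201, was 26497 bp wide and reached 20038 bp upstream and 6458 bp downstream of the 5′ end. The site thus lay mostly upstream of the gene, and all of the 20 kb upstream of the 5′ end were covered. A separate site of 15537 bp began 18871 bp downstream and ran out of the window.

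Neurog2 (ENSMUSG00000027967, chr3:127633135-127635631, plus strand) had 56.9% of its window under 3 sites. Over its TSS lay a site of 22618 bp (chr3:127625457-127648074), which reached 7678 bp upstream and 14939 bp downstream. Here the greater part lay beyond the gene in the direction of transcription, and the other sites in the window were only 334 and 1238 bp wide. The outer parts of its window held no site.

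Neurog3 (ENSMUSG00000044312, chr10:62133090-62134763, plus strand) had 80.7% of its window under 11 sites, the largest number of sites among the 9 genes. The site over its TSS, at chr10:62124871-62141573, was 16703 bp wide and nearly symmetric, with 8219 bp upstream and 8483 bp downstream. Another wide site of 12526 bp ended 14421 bp upstream of the 5′ end. Neurog3 lies within the body of Fam241b on the other strand, and a TSS of that gene lay under the same 16703 bp site, so that the site cannot be attributed to 1 of the genes.

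The NeuroD genes, which act later in neuronal differentiation, spanned nearly the whole range of coverage. Neurod2 (ENSMUSG00000038255, chr11:98325415-98329648, minus strand), which acts in differentiating forebrain neurons, had 94.7% of its window under 4 sites, the highest share of the 9 genes and above 99.6% of protein-coding genes. The site over its TSS, at chr11:98308898-98342555, was 33658 bp wide and reached 12907 bp upstream and 20750 bp downstream. Beyond it lay wide sites of 10474 bp upstream and 12062 bp downstream, both of which ran out of the window. The neighbouring gene Ppp1r1b, named after its values were seen, encodes the signalling protein DARPP-32 of dopamine-responsive neurons. It had its TSS under the 10474 bp site, with its 5′ end 18756 bp from that of Neurod2.

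Neurod1 (ENSMUSG00000034701, chr2:79452521-79456751, minus strand), a factor of neurons and of pancreatic beta cells, had 28.9% of its window under 7 sites. Over its TSS lay a site of 7099 bp (chr2:79453753-79460851), with 4100 bp upstream and 2998 bp downstream. The 5′ end of Cerkl lies 34 bp from that of Neurod1 on the same strand, and the body of Cerkl spans Neurod1. A TSS of Cerkl and a TSS of the long non-coding RNA Gm26755 also lay under this site. The site therefore cannot be attributed to 1 of these genes. None of the other 6 sites in the window was wider than 1552 bp.

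Neurod6 (ENSMUSG00000037984, chr6:55677822-55681263, minus strand), which marks differentiating cortical neurons, had 19.5% of its window under 6 sites. A site of 3583 bp covered its TSS (chr6:55680999-55684581) and lay almost entirely upstream, with 3318 bp before and 264 bp after the 5′ end. The long non-coding RNA Gm3279 had a TSS under the same site, 3308 bp upstream on the other strand. A further site of 3022 bp lay beyond the 3′ end of Neurod6.

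Neurod4 (ENSMUSG00000048015, chr10:130268152-130280240, minus strand), which acts in retinal and other neuronal progenitors, had 0.384% of its window under 1 site. That share exceeded the share of 40.5% of protein-coding genes, of which 8372 had no site in the window. The site was 200 bp wide, the smallest width in the list, and lay 16620 bp upstream of the 5′ end at chr10:130296860-130297059. It is shown on the plus strand of GRCm38.p6, with CpGs in capitals, because it is the only site listed within the window. With an extension of 50 kb the covered share was 0.863%, so that further sites lay beyond the window.
Site upstream of Neurod4: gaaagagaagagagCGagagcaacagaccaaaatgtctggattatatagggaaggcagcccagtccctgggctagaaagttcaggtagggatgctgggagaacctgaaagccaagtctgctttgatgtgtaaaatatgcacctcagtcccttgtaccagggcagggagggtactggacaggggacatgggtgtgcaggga

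The site upstream of Neurod4 held 1 CpG, and 147 of its 200 bases (73.5%) were repeat-masked, against 25.7% of the uncovered bases of the window. The windows were also compared with the 217 sequences of the assembly outside the chromosomes (95% identity or more over at least 1000 bp). The match was 0 bases for Neurod4, Neurod2 and the neurogenins, and 7136 bp for Atoh7, 6128 bp for Neurod1, 4466 bp for Atoh1 and 2150 bp for Neurod6. The chromosomes themselves were not searched, and whether the matches were repeats was not tested. The part of such matches in the coverage of those 4 genes was not tested either. The absence of a site at Neurod4 says that none was listed, and the depth at which one would have been listed is unknown.

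The atonal homologues fell in the middle of the order. Atoh1 (ENSMUSG00000073043, chr6:64729125-64731245, plus strand), the factor of hair cells, cerebellar granule neurons and secretory cells of the gut, had 48.1% of its window under 10 sites. A site of 11700 bp covered its TSS (chr6:64725868-64737567) and lay mainly downstream, with 3257 bp before and 8442 bp after the 5′ end. Upstream of it, 7 sites of 204 to 1891 bp lay scattered between 9157 and 18831 bp from the 5′ end.

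Atoh7 (ENSMUSG00000036816, chr10:63099651-63101279, plus strand), the factor of retinal ganglion cells, had 29.5% of its window under 7 sites. The site over its TSS, at chr10:63099109-63102287, was the narrowest of the family at 3179 bp, with 542 bp upstream and 2636 bp downstream. It was the last of a row of 5 sites that began 10368 bp upstream, and no site lay in the window beyond it. When sites less than 1000 bp apart were joined, the site over the Atoh7 TSS became 13005 bp wide, so that its small width rested on short interruptions.

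**Figure D2:**
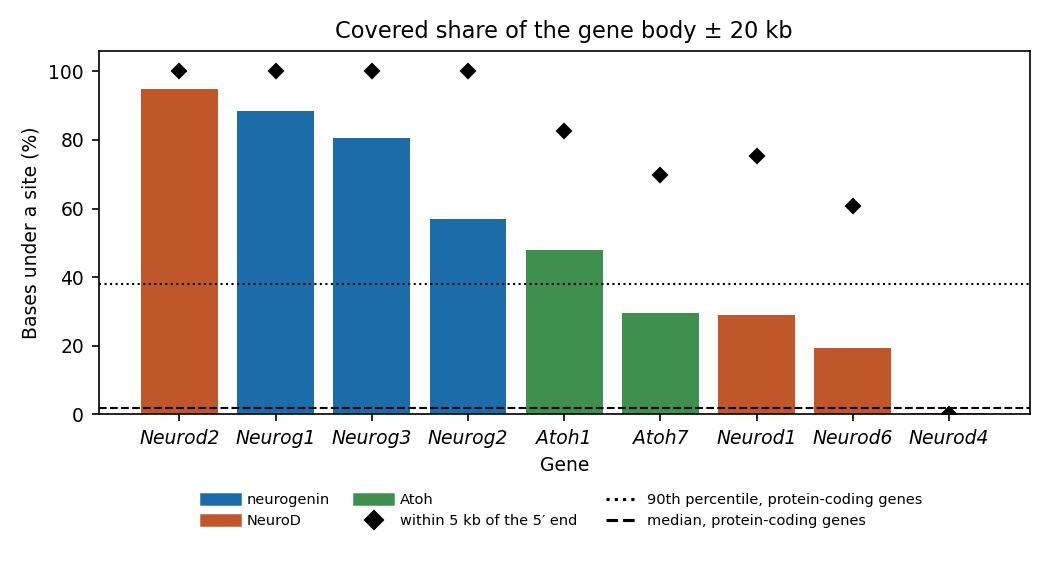
Bars give the percentage of bases under a site in the gene body extended by 20 kb, coloured by subfamily, and diamonds the same within 5 kb of the 5′ end; the dashed line is the median (1.88%) and the dotted line the 90th percentile (37.9%) of the bars' measure over protein-coding genes. The bars fall from 94.7% at Neurod2 to 0.384% at Neurod4, and 5 of them exceed the dotted line.

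In the order of covered share, Neurod2, Neurog1, Neurog3, Neurog2 and Atoh1 stood above the 90th percentile of protein-coding genes (37.9%), and Atoh7, Neurod1 and Neurod6 between the upper quartile (13.95%) and the 90th percentile. Atoh7 (29.5%) and Neurod1 (28.9%) were next to each other and changed places under some settings. Without replicates, no difference between neighbours in this order could be set against an error. By subfamily, the NeuroD genes ran from 0.384% to 94.7%, the neurogenins from 56.9% to 88.5% and the Atoh genes from 29.5% to 48.1%, so that the NeuroD range enclosed both others.

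The bases close to the 5′ end were more fully covered than the whole window in every gene but Neurod4. At least 50% of the bases within 5 kb on either side of the 5′ end were covered in 8 of 9 genes, against 12.8% of protein-coding genes. Coverage of these bases was 100% at Neurog1, Neurog2, Neurog3 and Neurod2. It was 82.6% at Atoh1, 75.5% at Neurod1, 69.7% at Atoh7, 60.8% at Neurod6 and 0 at Neurod4. Neurod6, which was low over the whole window, thus still had most of these proximal bases covered.

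**Figure D3:**
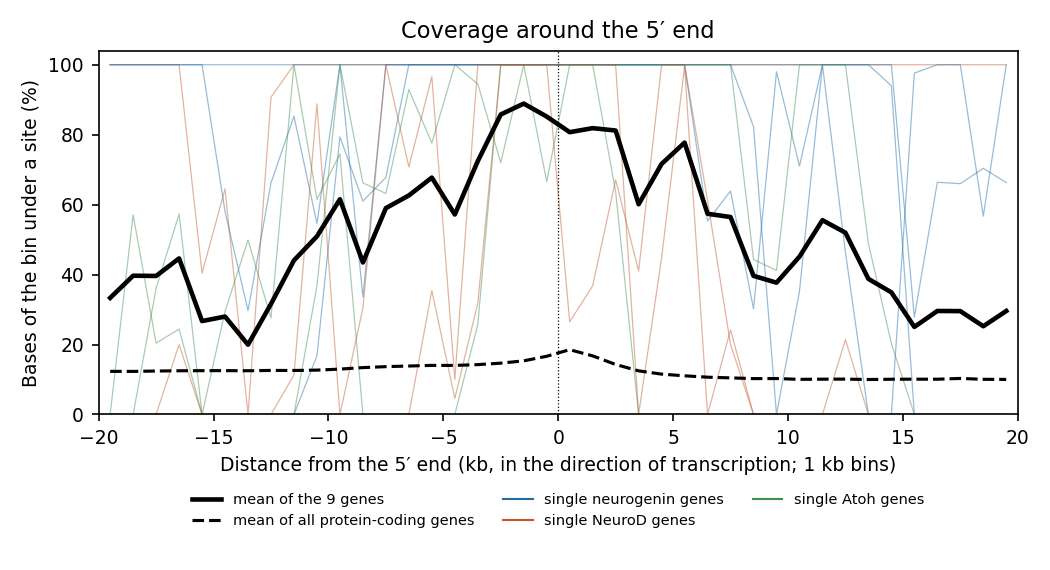
The horizontal axis is the distance from the 5′ end in 1 kb bins in the direction of transcription, and the vertical axis the percentage of bases of each bin under a site; thin lines are single genes, the thick line their mean and the dashed line the mean of all protein-coding genes. The mean of the 9 genes reaches 88.9% in the bin from 2 to 1 kb upstream, and that of all protein-coding genes reaches 18.5% in the first 1 kb downstream.

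The mean over the 9 genes was highest between 3 kb upstream and 3 kb downstream of the 5′ end, where it ran from 80.7% to 88.9% per 1 kb bin, and 8 of the 9 genes contributed to each of these bins. In the first kb downstream the mean was 80.7%, against 18.5% over all protein-coding genes. At the outer edge of the profile, 20 to 19 kb upstream, 3 genes (Neurog1, Neurog3 and Neurod2) were covered and the mean was 33.3%, against 12.3%. In the last bin, 19 to 20 kb downstream, the mean was 29.6%, against 10.0%.

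The sites covered the coding sequence nearly completely. At least 95% of the coding bases were covered in 8 of 9 genes, against 6.09% of protein-coding genes. The share was 100% in 7 genes, 98.1% in Neurod6 and 0 in Neurod4. All 9 genes have their coding sequence in 1 exon, and 4 of them (Neurog1, Neurog3, Atoh1 and Atoh7) have no intron. The coding sequence lay inside the site over the TSS in all of the 8 genes but Neurod6. The count of 8 thus largely follows from the count of TSSs under a site. The 6.09% is over genes of all lengths, and no share was taken over short genes for this measure. The site over the TSS reached past the 3′ end in 6 of the 8 genes with such a site, by 1008 bp at Atoh7 to 16517 bp at Neurod2. It did so in 16.0% of all protein-coding genes with a TSS under a site and in 34.0% of those of at most 15 kb, and the 8 genes are shorter than that limit.

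The exceptions were Neurod1 and Neurod6. At Neurod1 the site over the TSS covered the 5′ untranslated region, the intron and the coding exon and stopped short of the 3′ end. With a second site of 220 bp at that end, 19.4% of the 3′ untranslated region was covered. At Neurod6 the site over the TSS ended before the intron, which had 0 of its 1292 bp covered. A second site of 1039 bp, from 1632 to 2670 bp downstream of the 5′ end, then covered 98.1% of the coding bases. The 3′ untranslated region of Neurod6 was covered to 5.75%. Among the 8 genes with a site over the TSS, only Neurod6 had its coding sequence outside that site.

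**Figure D4:**
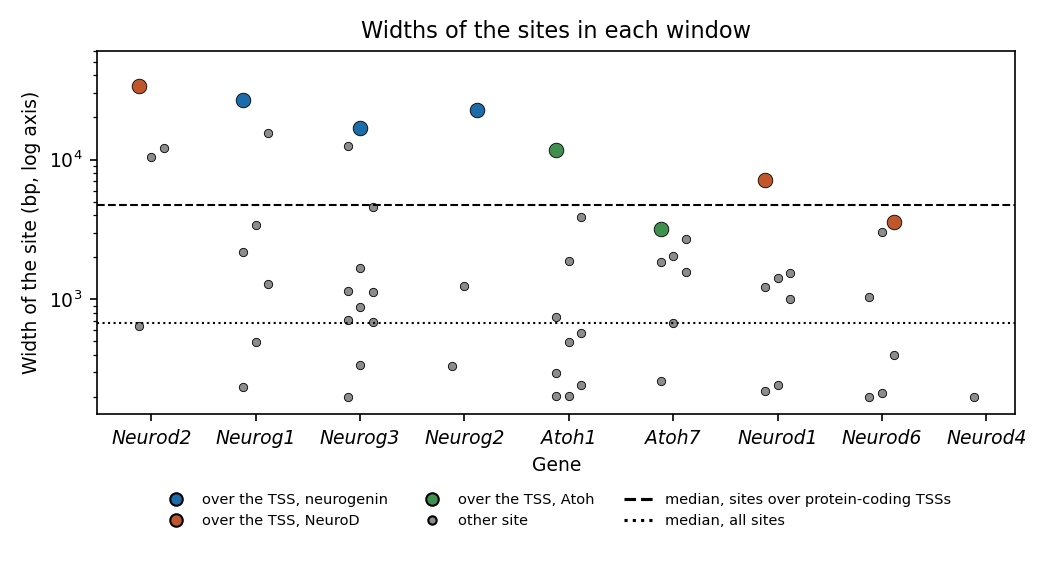
Each point is a site in the window of the gene named on the horizontal axis, with its width in bp on a log axis; large coloured points lie over a TSS and small grey points do not, and the lines give the medians of all sites (676 bp, dotted) and of sites over protein-coding TSSs (4740 bp, dashed). The site over the TSS is the widest in each window that has one, and it lies below the dashed line at Neurod6 and Atoh7.

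The site over the TSS was the widest of its window in all 8 genes that had one, against 59.6% of protein-coding genes with a TSS under a site. The median width of these 8 sites was 14201.5 bp, against 4740 bp over the 4379 sites that lay over a protein-coding TSS, of which 23.6% were at least 10 kb wide. The sites at Neurod2, Neurog1 and Neurog2 were wider than 96.9%, 95.1% and 93.5% of those sites. The sites at Neurod6 and Atoh7 were wider than only 39.1% and 35.2% of them. The count of sites of at least 10 kb over a TSS depended on how sites were joined. It was 5 as listed, 7 with gaps under 1000 bp joined and 8 with gaps under 3000 bp joined, and the share of protein-coding genes under the same joining was 5.47%, 9.42% and 13.4%.

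The base composition around the 5′ end was compared because H3K27me3 is known to lie at CpG islands. An island-like stretch (500 bp in which GC made up 55% or more and the observed/expected CpG ratio was 0.65 or more) was present within 1 kb of the 5′ end of 7 of 9 genes, all but Neurod4 and Neurod6, against 55.5% of protein-coding genes. A TSS lay under a site in all 7, against 19.9% of protein-coding genes with such a stretch. Of the other pair, Neurod6 had a site over its TSS and Neurod4 had none, against 23.2% of protein-coding genes without such a stretch. Over all protein-coding genes, the share with a TSS under a site was thus not higher where such a stretch was present. The stretch was sought only at the 5′ end of the gene model, while the site could lie over any TSS. The shares can therefore describe different promoters of a gene and do not show how sites relate to such stretches.

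Within 500 bp of the 5′ end, Neurod4 and Neurod6 were alike in composition. The CpG ratio was 0.200 at Neurod4 and 0.205 at Neurod6, and the GC content was 46.9% and 42.0%. The median ratio was 0.506 over the 9 genes and 0.558 over all protein-coding genes. The highest ratios were 0.851 at Neurog2 and 0.756 at Neurog1. Neurod2, with the widest site, had a ratio of 0.455, below the median.

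Inside the windows, covered bases had a higher GC content than uncovered bases in 9 of 9 genes, against 86.6% of the protein-coding genes with both kinds of bases. The GC contents were, for example, 52.96% against 46.95% at Neurod2 and 46.91% against 38.09% at Neurod1. The covered share of Neurod4 rests on 200 bases. Covered bases were also less often repeat-masked in 8 of 9 genes, against 76.9% of protein-coding genes. The masked shares were, for example, 21.6% against 56.4% at Atoh1 and 22.3% against 56.6% at Atoh7, with Neurod4 as the exception. Both counts were near the share of all genes. The authors removed reads that ENCODE guidelines class as unusable, and the part of that filter in these values was not tested.

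The lists of related genes below were set by their roles, with earlier results of these data known, and their counts stand against 21.4% of protein-coding genes with a TSS under a site and a median covered share of 1.88%. The other neural or tissue-restricted bHLH genes had a TSS under a site in 15 of 19 cases (78.9%), with a median covered share of 63.7% against 48.1% for the proneural genes. The highest shares were 98.6% at Olig2, a factor of oligodendrocytes and motor neurons, 96.8% at Bhlhe23, and 88.2% at Ptf1a, a factor of the pancreas and of inhibitory neurons. The 4 without a TSS under a site, named after their values were seen, were Ascl3, Atoh8, Bhlha15 and Lyl1, each with a covered share of 0. Atoh8, of the same atonal family as Atoh1 and Atoh7, was therefore unlike both.

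The E proteins, with which the proneural factors dimerise, had a TSS under a site in 0 of 3 genes, against 21.4% of protein-coding genes. A list of 3 genes is too short to be set apart from that share. Tcf3 had 13.8% of its window covered, with the nearest site 8681 bp from a TSS, and Tcf4 and Tcf12 had no site in the window.

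Of the Hes, Hey and Id inhibitors, 5 of 13 (38.5%, against 21.4% of protein-coding genes) had a TSS under a site, with a median covered share of 3.62%, against 1.88%. These were Heyl (71.6%), Hes2 (57.2%), Hes5 (50.7%), Hes3 (15.8%) and Hey1 (13.3%), the last 2 of them named after their values were seen. None of the 4 Id genes was among them. Of the Notch ligands and receptors, 6 of 9 (66.7%, against 21.4%) had a TSS under a site, with a median covered share of 31.5%, and the ligands Dll1 (61.7%) and Jag2 (47.4%) and the receptor Notch4 (41.4%) had the highest shares.

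Of the neuronal genes that lie downstream of proneural factors, 16 of 20 (80.0%, against 21.4% of protein-coding genes) had a TSS under a site, with a median covered share of 38.8%. The highest shares were 76.7% at the corepressor gene Cbfa2t3, 71.6% at Gfi1, which acts in hair cells downstream of Atoh1, and 71.2% at Isl1, a factor of motor neurons and islet cells. The 4 without one, named after their values were seen, were Ebf1, Ebf3, Dcx and Tubb3. The 16 include genes with little coverage, also named after their values were seen. St18 (2.54%) counted through a site of 710 bp and had 0% of the bases within 5 kb of its 5′ end covered. The covered share of the window was 1.93% at Stmn2, 6.20% at Elavl4 and 7.77% at Tbr1.

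**Figure D5:**
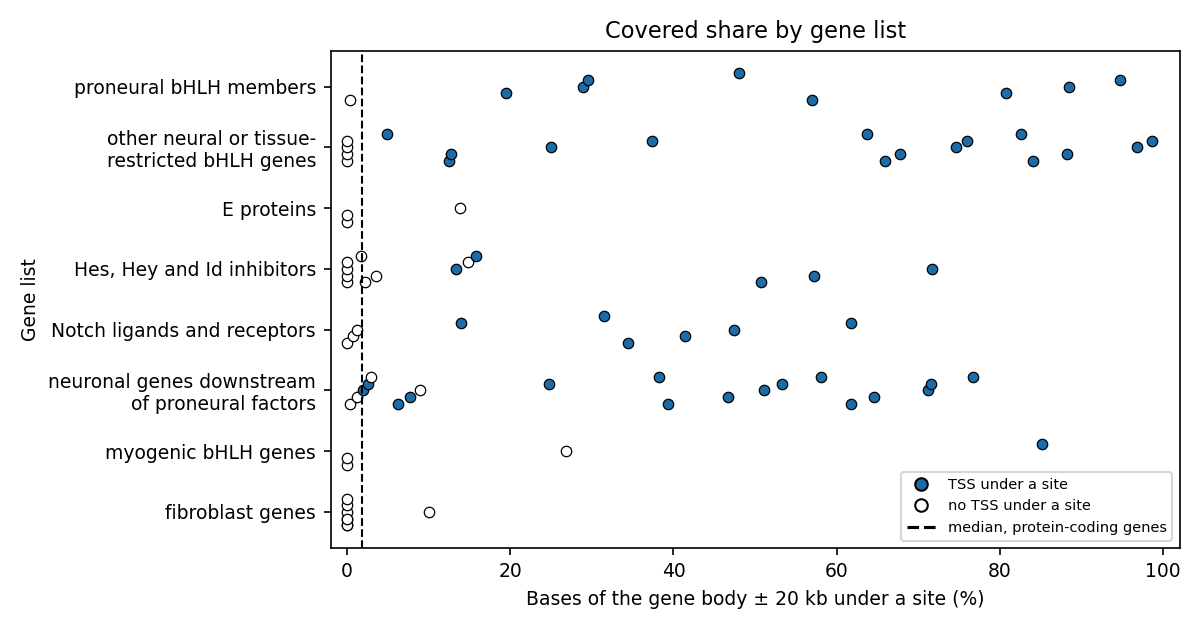
Each point is a gene of the list named on the vertical axis, placed by the percentage of its window under a site; filled points have a TSS under a site, and the dashed line is the median of all protein-coding genes (1.88%). Filled points make up 8 of 9 proneural genes and 0 of 3 E proteins and 0 of 8 fibroblast genes.

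The myogenic bHLH genes, which specify skeletal muscle, allowed a comparison with another lineage of the bHLH family. Myod1 had a TSS under a site of 14413 bp and a covered share of 85.1%, within the range of the neurogenins. Myog had 26.9% of its window covered and no site over its TSS, the nearest being 5619 bp away. Myf5 and Myf6, which neighbour each other, had no site in their windows, with the nearest 212848 and 221451 bp away. A TSS thus lay under a site in 1 of 4 myogenic genes, close to the 21.4% of protein-coding genes, and in 3 of 4 NeuroD genes. Lists of 4 genes are too short to be set apart from each other. Of the myogenic genes, only Myod1 had an island-like stretch at its 5′ end.

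Genes that fibroblasts are known to express served as a check of the labelled cell type. A TSS lay under a site in 0 of 8 of them (Col1a1, Col1a2, Col3a1, Fn1, Vim, Thy1, S100a4 and Pdgfrb), against 21.4% of protein-coding genes, and 8 genes are few to set apart from that share. Their covered share was 0 except for 10.1% at Pdgfrb. This check concerns the absence of a repressive mark and gives no expression level.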

How the data were processed

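H3K27me3 ChIP-seq of iMEF cells was represented by 1 list of site positions that the authors deposited, which was not filtered; 0 columns of per-sample values were left unused. According to the study's methods, the authors used Trim Galore, BWA (mm10, GRCm38.p6), samtools, Picard to merge replicates and MACS for broad peaks in modified nf-core code, and brought libraries to the lowest coverage. The submitters' processing notes also name deepTools and DESeq2. Versions, cutoffs and the rule that joined peaks across samples are not given in the sources used here.

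Starts were read as counted from 0, which gives a smallest width of 200 bp, and positions are printed counted from 1. Genes were those of GENCODE M21 (the authors used M25, of the same build). The RefSeq promoter table matched all 9 genes. Python 3.11.15, numpy 2.4.6, pysam 0.24.0 and, for matches of windows outside the chromosomes, minimap2 2.31 were used, and the scripts were tested on simulated sites. Members and lists were chosen with earlier results of these data known. The genes named by rule were all of a list of up to 4 genes, the 3 of highest covered share in longer lists and neighbours at a member's TSS site. The fibroblast markers are also named in full, and other genes are marked in the text as named after their values were seen. The alternatives changed the extension, the minimum width, the joining of sites, the start convention, the overlap and the TSS definition. The CpG island criterion was chosen after the data had been seen.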

Additional observations from a re-analysis of the deposited data

How the results depend on the processing

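No paired analysis was possible because the list pools all libraries and holds no value for any of them, and for the same reason no replicate could be left out. A value was taken as changed if it moved by more than 1.5 times. Of the recomputed values of the main results, 40 did not move by that much and 4 did. The median covered share of the 9 genes was 100% in the gene bodies alone and 23.6% with an extension of 50 kb, against 48.1% with 20 kb. Joining sites across gaps under 3000 bp gave a median of 25108 bp for the widest site, against 11700 bp, and 8 genes had a TSS under a site of at least 10 kb, against 5 (13.4% and 5.47% of protein-coding genes). That last result and its alternatives were added after the data had been seen. The count of 8 TSSs under a site was the same in every alternative run for it. Sites of at least 500 bp, or an extension of 10 kb, left 8 of 9 genes with a site, since the single site of Neurod4 fell away. Neurod6 and Neurod4 had the lowest covered shares under all settings. Neurod2, the neurogenins and Atoh1 had the highest, except in the gene bodies alone, where Atoh7 tied with them at 100%. Of the recomputed shares of single genes, 52 did not move by over 1.5 times and 20 did, mostly with the extension: Neurog2 had 95.9% at 10 kb and 23.6% at 50 kb, and Atoh7 had 50.7% and 17.2%. The wide sites depend on how the peak caller and the joining across samples bridged gaps, which the list does not show. A site present at 1 time point and one present at all are listed alike.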
